A study of Mus musculus with 2 samples.

Results

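The genes described are 40 replication and mitosis genes, taken as a fixed list of symbols out of 32285 genes in the deposited matrices. For the comparisons, 24 of them were treated as mitosis members, 15 as replication members, and Cks1b, which encodes a small partner of cyclin-dependent kinases, was placed in neither set. They were measured in 2 single-cell libraries of CD45+ cells, the leukocytes, isolated with magnetic beads from intracranial CT-2A tumours, a transplanted mouse glioma line, 14 days after implantation. One library came from wildtype hosts and the other from Glut5 KO hosts, which lack the fructose transporter encoded by Slc2a5. About 16000 cells were loaded for each library, and the tumour cells implanted were the same line in both. The sources used here give neither the deleted exons nor the ages and number of the hosts. The sample titles name a single mouse, while the series description speaks of a knockdown. With 1 library per genotype there was no replicate check and no test, and each interval below is a 95% interval of counting error only.

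A dividing cell first licenses its DNA for replication by loading the MCM helicase, with Cdc6 and Cdt1 as loading factors, then copies the DNA around the sliding clamp Pcna while ribonucleotide reductase and thymidylate synthase supply nucleotides. It then condenses its chromosomes, builds a spindle and separates the daughter cells under the control of cyclin-dependent kinase 1, the Aurora and Polo kinases and the anaphase-promoting complex. Transcripts of the replication genes are known to climb around the start of S phase under E2F factors, and those of the mitosis genes later, through promoter elements called CHR that are bound by the DREAM and MuvB complexes. In the tumour-bearing brain, resident microglia, incoming monocyte-derived macrophages and activated T cells can all divide.

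The promoters of the mitosis and replication members differed in their letters. Promoters were taken from RefSeq on GRCm38.p6, 250 bases before to 50 after each start site, and 35 of the 40 members were matched by symbol. The 6 printed here are those of the 3 mitosis members (Ube2c, Birc5, Top2a) and the 3 replication members (Pclaf, Pcna, Mcm6) with the most UMIs, each shown from 120 bases before to 10 after the start site, 5′ to 3′ on the strand of the gene. Capitals mark an E2F element (TTTCCCGC or TTTGGCGC), a CHR element (TTTGAA) or a CCAAT box (CCAAT), on either strand.
Ube2c: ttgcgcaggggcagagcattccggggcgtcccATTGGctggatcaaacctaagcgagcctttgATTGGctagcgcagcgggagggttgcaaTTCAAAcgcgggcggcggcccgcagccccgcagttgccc
Birc5: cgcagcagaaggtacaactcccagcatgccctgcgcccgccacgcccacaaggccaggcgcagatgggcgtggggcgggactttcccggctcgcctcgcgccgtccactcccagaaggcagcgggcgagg
Top2a: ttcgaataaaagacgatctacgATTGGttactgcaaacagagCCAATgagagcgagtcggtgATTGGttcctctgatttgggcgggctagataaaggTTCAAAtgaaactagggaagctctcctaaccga
Pclaf: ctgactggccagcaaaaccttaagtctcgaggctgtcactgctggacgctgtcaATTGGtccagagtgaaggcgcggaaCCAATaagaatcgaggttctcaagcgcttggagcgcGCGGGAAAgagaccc
Pcna: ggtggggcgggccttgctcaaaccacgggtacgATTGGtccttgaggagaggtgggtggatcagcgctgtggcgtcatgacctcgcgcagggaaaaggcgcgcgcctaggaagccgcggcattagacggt
Mcm6: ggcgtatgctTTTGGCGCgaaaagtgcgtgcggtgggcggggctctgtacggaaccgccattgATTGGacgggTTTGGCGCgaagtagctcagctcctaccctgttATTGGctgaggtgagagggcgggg
These windows lie at chr2:164769809-164769938 (+ strand), chr11:117849117-117849246 (+ strand), chr11:99024180-99024309 (- strand), chr9:65890203-65890332 (+ strand), chr2:132253171-132253300 (- strand) and chr1:128359696-128359825 (- strand). Ube2c and Top2a each carry a CHR element in its reverse form, TTCAAA, close before the start site, while Birc5 holds none of the 3 elements in the whole matched window. Pclaf carries an E2F element across its start site and Mcm6 carries 2 upstream of it, while the Pcna window shows only a CCAAT box. Over all matched promoters, a CHR element was present in 15 of 20 mitosis members and 2 of 14 replication members, against 17.9% of all 32851 promoters of the same length. An E2F element was present in 0 of 20 mitosis members and 7 of 14 replication members, against 1.56% of all promoters. CCAAT boxes were present in 17 of 20 and 10 of 14, against 37.4%. Both CCAAT boxes and E2F elements can share bases with their own reverse forms. A match describes the letters only, and the absence of a match says only that these letters are not in the window.

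Depth differed between the libraries, with 116105873 unique molecular identifiers (UMIs, 1 per captured transcript) in 11495 wildtype barcodes and 96851696 in 12165 Glut5 KO barcodes. After removal of barcodes with under 300 genes or at least 10% mitochondrial UMIs, 11473 and 12112 cells remained, with medians of 8682 and 6523.5 UMIs. The libraries shared 188 barcode sequences. Slc2a5, the targeted gene, had 384 UMIs in wildtype and 1 in Glut5 KO cells, which fits the labels. Cell types were gated on marker transcripts, so each name below means cells that look like that type. Of the 13 types, 7 had at least 200 cells in both libraries and were compared, namely microglia (1574 wildtype and 1401 Glut5 KO cells), monocytes and macrophages (7097 and 6625), type 1 and type 2 conventional dendritic cells, migratory dendritic cells, T cells (292 and 623) and NK cells. The gate left 6.06% of wildtype and 8.96% of Glut5 KO cells unnamed, and a further 3.56% and 3.23% lay between microglia and macrophages. In gated microglia the median of the summed macrophage markers was 8.94 and 9.14 UMIs per 10000 in wildtype and Glut5 KO, beside 91.6 and 99.8 for microglial markers, and in gated macrophages the microglial markers were at 16.9 and 14.8 beside 90.8 and 83.3. The dendritic and T cell gates held more of the macrophage markers, at 31.1 and 33.7 beside 16.6 and 15.9 for the own markers of type 1 dendritic cells, 46.4 and 49.8 beside 27.9 and 27.1 for type 2 dendritic cells, and 30.4 and 28.8 beside 42.5 and 44.6 for T cells. Their part in the results for those types was not tested. Within 0.5 of the log2 boundary of their gate lay 169 and 144 microglia and 498 and 534 macrophages. Within 0.05 of the score threshold lay 89 of 215 and 119 of 262 type 2 dendritic cells, 55 of 292 and 118 of 623 T cells, 39 of 272 and 45 of 232 type 1 dendritic cells, 38 of 298 and 43 of 338 NK cells, and 18 of 306 and 27 of 259 migratory dendritic cells. Cells with Xist UMIs and none from Y-linked genes were called female, and the reverse male. Each library held both, which a single mouse would not give, and the results are also given by sex.

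Of the 7 types, wildtype T cells held the highest levels of the genes, and the lowest were in type 2 and migratory dendritic cells. Levels are UMIs of the gene per 1000000 UMIs of the cell type (CPM). The 24 mitosis members summed to 1670.0 CPM in T cells (1621 to 1721), 1117 CPM in macrophages, 1018 CPM in type 1 dendritic cells and 996 CPM in microglia (979.6 to 1013). NK cells stood at 291 CPM, and migratory and type 2 dendritic cells at 114 and 96.4 CPM, whose intervals (99.3 to 129 and 83.1 to 111 CPM) overlap. Type 1 dendritic cells and microglia also overlap, at 987 to 1049 and 979.6 to 1013 CPM. The 15 replication members spanned a narrower range, from 1539 CPM in T cells to 254 CPM in migratory dendritic cells. Gene by gene, 21 of the 24 mitosis members and 14 of the 15 replication members had their highest wildtype level in T cells. The plot of summed levels by cell type shows the same order, together with 3 types too small to compare in 1 library or both.

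**Figure D1:**
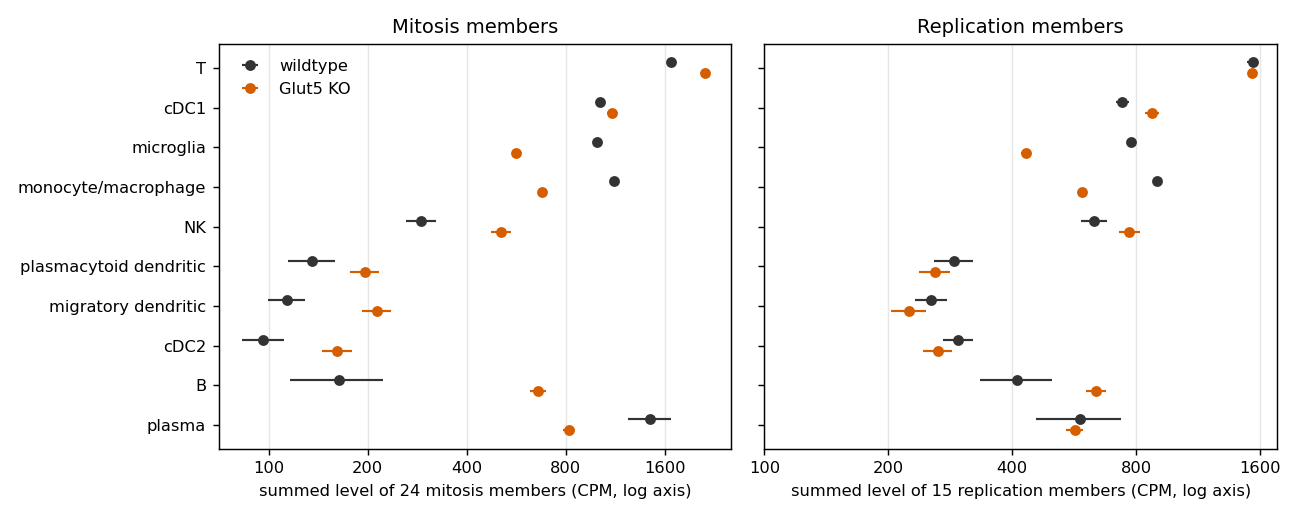
Summed level of the 24 mitosis members (left) and the 15 replication members (right) in each gated cell type, in CPM on a log axis; points are the single library of each genotype, and bars are exact 95% Poisson intervals of counting error. Glut5 KO points lie left of wildtype points in microglia and macrophages, at 566 against 996 CPM and 676 against 1117 CPM for the mitosis members, and right of them in T and NK cells for the mitosis members. B and plasma cells had 29 and 6 wildtype cells and are shown for their levels only.

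Microglia of the Glut5 KO library carried fewer transcripts of every member. The mitosis sum was 996 CPM in wildtype (979.6 to 1013) and 566 CPM in Glut5 KO (552 to 581), a log2 ratio of -0.81 (-0.86 to -0.77), or 1.76-fold lower. The replication sum was 779.9 and 433 CPM, a log2 ratio of -0.85 (-0.90 to -0.80). By the rule used throughout, a gene with at least 20 UMIs over both libraries was counted when its level differed at least 1.5-fold. Of the 40 members, 37 were counted as lower in Glut5 KO and 0 as higher, beside 7.04% of 12135 genes lower and 5.17% higher. The median log2 ratio of the members was -0.81, against -0.04 over all genes. The 3 members short of 1.5-fold were Cenpf, Mcm4 and Cdt1, at -0.54, -0.58 and -0.53 on the log2 scale.

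Among the cyclins and kinases that drive entry into mitosis, Ccnb1, the B-type cyclin that activates Cdk1, was at 27.3 CPM in wildtype and 11.3 CPM in Glut5 KO microglia (378 and 119 UMIs). That 2.42-fold gap, a log2 ratio of -1.27 (-1.59 to -0.98), was the widest of the 40. Its relative Ccnb2 differed less, at 45.2 and 30.1 CPM (-0.59, -0.79 to -0.39), and the intervals of the pair do not overlap. Ccna2, the cyclin of S and G2 phases, was at 34.5 and 15.9 CPM (-1.12), and Cdk1 itself at 72.4 and 39.4 CPM (-0.88). The kinases of the spindle followed the same direction: Aurka, which matures centrosomes, was at 18.1 and 8.05 CPM (-1.16), and Plk1 at 25.2 and 13.2 CPM (-0.94). Aurkb and Birc5, subunits of the chromosomal passenger complex that corrects attachments to the spindle, were at -0.87 and -0.80 on the log2 scale, from 34.0 and 89.7 wildtype CPM.

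Bub1, a kinase of the spindle checkpoint, was at 10.3 and 4.55 CPM (-1.17, -1.68 to -0.69), and Spc24, a subunit of the kinetochore's NDC80 complex, at 35.5 and 18.2 CPM (-0.96). The kinetochore proteins Cenpe and Cenpf were at the milder end of the list, at -0.71 and -0.54. The spindle builders Kif11, Nusap1, Prc1, Tpx2 and Ckap2l ranged from -0.99 for Nusap1 to -0.76 for Tpx2. Racgap1 and Anln, which act at the cleavage furrow, were at -0.83 and -0.68. Ube2c and Cdc20, the conjugating enzyme and the activator of the anaphase-promoting complex, were at -0.79 and -0.78, and Cdca3, a trigger of mitotic entry, at -0.95. Ube2c had 1853 and 815 UMIs, so its interval was narrow (-0.92 to -0.68). The proliferation marker Mki67 was at 80.8 and 51.8 CPM (-0.64, -0.79 to -0.49), and the topoisomerase Top2a at 80.9 and 49.4 CPM (-0.71). Both common markers thus differed less than the median mitosis member, at -0.82. Cks1b was at -0.70.

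On the replication side, Pclaf, a partner of the clamp Pcna, was at 93.2 CPM in wildtype and 40.9 CPM in Glut5 KO microglia (-1.19, -1.35 to -1.03). Rrm2, the regulated subunit of ribonucleotide reductase, was at 37.8 and 17.2 CPM (-1.13), while its larger partner Rrm1 was at 48.7 and 29.0 CPM (-0.75). The thymidine enzymes Tyms and Tk1 stood at -0.99 and -0.92, and the histone chaperone Asf1b at -0.84. The 6 subunits of the MCM helicase ran from -0.98 for Mcm2 to -0.58 for Mcm4, with Mcm7 at -0.91 and Mcm3, Mcm5 and Mcm6 between -0.80 and -0.79. Pcna was at 104 and 65.2 CPM (-0.67). Of the loading factors, Cdc6 was the least read of the 40 members and the least certain. It had 55 and 27 UMIs and an interval of -1.36 to 0.05. Cdt1 was at 25.3 and 17.5 CPM (-0.53). In female microglia alone 35 of 40 members were at least 1.5-fold lower and 0 higher, beside 8.77% and 4.24% of all genes. In male microglia alone 38 were lower and 0 higher, beside 11.8% and 6.75%.

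Monocytes and macrophages, the largest class, also carried lower levels in the Glut5 KO library, but the difference was wide in male cells and narrow in female cells. Over all cells the mitosis sum was 1117 CPM in wildtype and 676 CPM in Glut5 KO (-0.73, -0.74 to -0.71), and the replication sum 898 and 591 CPM (-0.60, -0.62 to -0.58). Counted by gene, 34 of 40 members were at least 1.5-fold lower and 0 higher, beside 8.07% of 15148 genes lower and 7.34% higher. In male cells alone 39 of 40 were lower and 0 higher (background 8.76% and 8.93%), and in female cells alone 1 of 40 was lower and 0 higher (background 11.4% and 5.73%). The median member was at -1.24 in male and -0.30 in female cells, where all genes were at -0.04 and -0.11. The single member counted in female cells was Plk1, at 34.7 and 21.7 CPM. Depth moved with the split: male macrophages had medians of 11821 wildtype and 8709 Glut5 KO UMIs, and female ones 10930 and 10168. The part of depth in this gap was not tested.

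All 24 mitosis members were past 1.5-fold in macrophages with both sexes pooled. Plk1 was at 27.3 CPM in wildtype and 14.4 CPM in Glut5 KO (-0.93, -1.05 to -0.81), the widest gap in this class. Ccnb1 and Ube2c followed, at 26.7 and 14.8 CPM (-0.85) and at 136 and 75.6 CPM (-0.84). Birc5 (-0.81), Anln (-0.78), Cenpf (-0.78), Cdc20 (-0.77), Ccna2 (-0.75) and Bub1 (-0.75) came next. Cenpf, mild in microglia, was thus in the upper part of the macrophage order. The mildest were Tpx2, Racgap1, Aurka and Spc24, at -0.59, -0.59, -0.63 and -0.64. Mki67 was at 98.9 and 62.4 CPM (-0.66), Top2a at 102 and 63.4 CPM (-0.69), and Cdk1 at -0.65. The remaining mitosis members (Nusap1, Cdca3, Prc1, Ccnb2, Cenpe, Aurkb, Kif11 and Ckap2l) lay between -0.74 and -0.66.

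Of the 15 replication members, 9 were at least 1.5-fold lower in macrophages. Tk1 led, at 69.2 and 39.1 CPM (-0.82, -0.90 to -0.75), followed by Mcm5 (-0.74), Tyms (-0.73), Asf1b (-0.70), Mcm2 (-0.69) and Rrm2 (-0.69). Pclaf was at 112 and 71.9 CPM (-0.64), a smaller gap than in microglia, and Mcm3 and Mcm6 were at -0.63 and -0.63. The 6 members short of the line were Rrm1 (-0.58), Mcm7 (-0.55), Mcm4 (-0.45), Pcna (-0.42), Cdt1 (-0.12) and Cdc6 (-0.12). Both loading factors were near level: Cdt1 was at 27.6 and 25.4 CPM, and Cdc6 at 6.53 and 6.02 CPM with an interval of -0.32 to 0.09. Rrm1 at -0.58 and Tpx2 at -0.59 were the members nearest to the 1.5-fold line, outside and inside it.

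**Figure D2:**
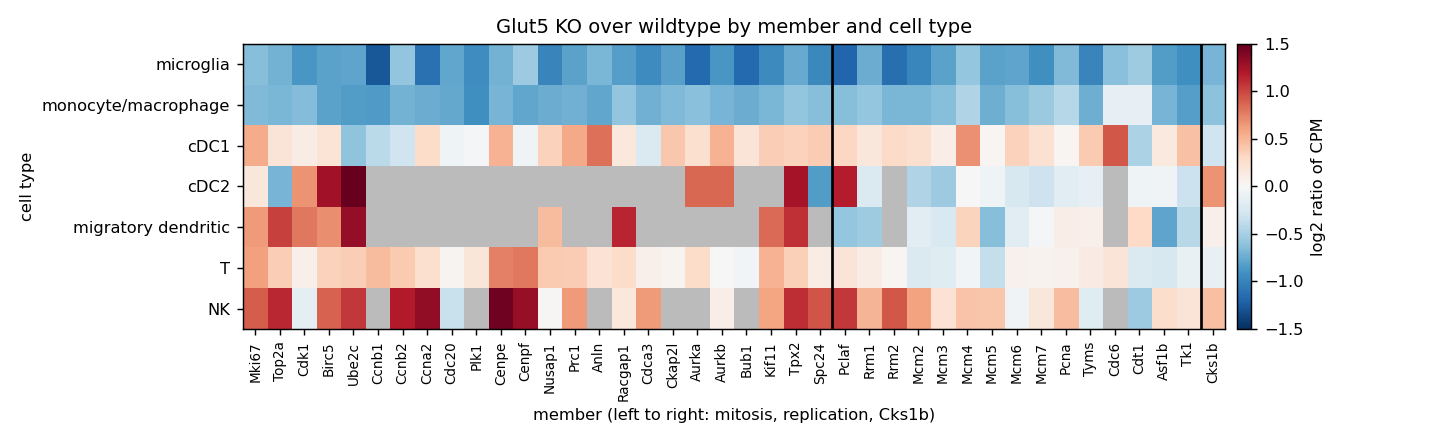
Log2 ratio of CPM, Glut5 KO over wildtype, for each of the 40 members (columns, mitosis then replication then Cks1b) in the 7 cell types compared (rows); blue is lower and red higher in Glut5 KO, the colour scale ends at 1.5, and grey marks members with fewer than 20 UMIs over both libraries. The microglia and macrophage rows are blue throughout, from -1.27 for Ccnb1 in microglia to -0.12 for Cdc6 in macrophages, while the NK row is mostly red.

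Other genes of the cell cycle, from lists that hold no member, followed the members to different degrees. Over all genes, 7.04% were at least 1.5-fold lower and 5.17% higher in microglia, and 8.07% and 7.34% in macrophages. Of 37 further mitosis genes, 32 were at least 1.5-fold lower in microglia and 32 in macrophages, with medians of -0.84 and -0.67. Among genes with at least 100 UMIs the extremes in microglia were Kif15 (-1.59) and Pbk (-1.24) against Espl1 (-0.45) and Pttg1 (-0.41), and in macrophages Hmmr (-0.94) and Cdca8 (-0.83) against Ndc80 (-0.45) and Pttg1 (-0.20). Pttg1 encodes securin, the guard of sister chromatids. Of 32 further replication genes, 22 were at least 1.5-fold lower in microglia and 5 in macrophages, with medians of -0.70 and -0.45. Pole, the catalytic subunit of a replicative polymerase, led in both classes (-1.22 and -0.86), followed by Chaf1a in microglia (-1.17) and the ligase Lig1 in macrophages (-0.77). At the other end were Pola2 (-0.27) and Prim2 (-0.22) in microglia, and Rfc3 (-0.05) and Gins3 (0.06) in macrophages. Of 29 genes that act before S phase or control it, 10 were lower and 1 higher in microglia, with a median of -0.29, while 1 was lower and 0 higher in macrophages, with a median of -0.06 that lay at that of all genes. The single higher gene in microglia was Cdkn1c, an inhibitor of cyclin-dependent kinases, at 0.78 on 35 and 46 UMIs. Counts of 1 in 29 do not stand above the shares of all genes. Among genes with at least 100 UMIs, Ccne1 (-1.40) and E2f8 (-1.29) were lowest in microglia, and Mybl2 (-0.69) and Cdkn2c (-0.57) in macrophages. The antiproliferative gene Btg1 was the highest of these in both, at 0.37 and 0.31, with Rbl2 next in microglia (0.35) and Ccnd3 in macrophages (0.28).

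T cells did not share the pattern. Their mitosis sum was 1670.0 CPM in wildtype and 2122 CPM in Glut5 KO (0.35, 0.29 to 0.40), and the replication sum 1539 and 1529 CPM (-0.01, -0.06 to 0.05). No member was at least 1.5-fold lower, beside 5.95% of 10743 genes, and 3 were at least 1.5-fold higher, beside 8.59%. These were Mki67, at 138 and 211 CPM (0.61), Cenpe (0.75) and Cenpf, at 51.0 and 88.4 CPM (0.79, 0.51 to 1.08). Mcm5 was the lowest, at 114 and 88.4 CPM (-0.36, -0.58 to -0.14). The 3 members of highest wildtype level were Ube2c (233 and 301 CPM), Pclaf (203 and 233 CPM) and Mcm6 (185 and 194 CPM).

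Within the T cells the difference of the mitosis sum was widest in cells with Cd8a or Cd8b1 UMIs and none of Cd4 or Foxp3, the cytotoxic subset. Their mitosis sum was 1934 CPM in 106 wildtype cells (1851 to 2020.1) and 3287 CPM in 173 Glut5 KO cells (3197 to 3379). Cells with Cd4 and no Foxp3, Cd8a or Cd8b1 stood at 1439.6 and 1724 CPM. Foxp3 cells, the regulatory subset, stood at 1943 and 1917 CPM, where the intervals overlap. The other T cells had none of these transcripts, or had Cd4 together with Cd8a or Cd8b1. They were at 1187 and 1009 CPM, from shallow cells with medians of 3009 and 3098 UMIs. The shares of mitosis-high cells, a call described below, did not separate between libraries in any of these subsets. In the cytotoxic subset they were 21.2% (13.8 to 30.3%) in wildtype and 30.2% (23.4 to 37.7%) in Glut5 KO. In Cd4 cells without Foxp3 the share was lower in Glut5 KO, unlike the sum. The intervals there were 12.7 to 35.8% in wildtype and 10.1 to 23.6% in Glut5 KO. By sex the T cell result turned: the mitosis log2 ratio was 0.66 in male cells (123 and 215 cells) and -0.38 in female cells (41 and 126 cells).

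NK cells held more of the mitosis members in Glut5 KO, at 291 and 509 CPM (0.81, 0.62 to 0.99), and the replication sum was 632 and 771 CPM (0.29). By sex the replication ratio was 1.56 in female and -0.73 in male NK cells. Of 33 members with at least 20 UMIs, 16 were at least 1.5-fold higher and 0 lower, beside 8.29% and 7.14% of genes. Some of the higher ones, such as Ube2c (16 and 43 UMIs) and Ccna2 (11 and 36), reached 20 UMIs only through their Glut5 KO counts. The count of higher members thus depends in part on this minimum. Top2a was at 29.9 and 66.0 CPM (1.13, 0.58 to 1.73), and Cdt1 at 48.2 and 33.0 CPM (-0.54). The highest wildtype levels among the members were those of Mcm6 (131 CPM), Pcna (63.1 CPM) and Mcm4 (51.5 CPM). Few cells held most of the mitosis UMIs in Glut5 KO: 27 NK cells, picked by other mitosis genes as described below, held 615 of 771, while 27 wildtype cells picked the same way held 137 of 350. Among the NK cells not picked, the mitosis sum was lower in Glut5 KO (-0.76).

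The dendritic cells differed among themselves. Type 1 cells were close between libraries, with mitosis sums of 1018 and 1106 CPM (0.12, 0.05 to 0.19) and replication sums of 741 and 874 CPM (0.24). By sex their mitosis ratio was -0.24 in female and 0.15 in male cells. In them 1 member was at least 1.5-fold lower and 3 were higher, beside 4.65% and 8.33% of genes. Ube2c was the lowest (169.7 and 111 CPM, -0.61) and Mcm4 the highest with at least 100 UMIs (37.0 and 59.5 CPM, 0.68), and the other two higher ones were Anln and Cdc6. Cks1b (141 CPM) and Pclaf (112 CPM) stood beside Ube2c at the top of the wildtype levels. In type 2 cells 23 members had 20 UMIs or more, of which 2 were lower and 8 higher, beside 6.78% and 6.97% of genes. The lower ones were Spc24 and Top2a. Among members with at least 100 UMIs the extremes were Tpx2 at 15.5 and 37.0 CPM (1.24) and Mcm3 at 32.0 and 21.9 CPM (-0.54). Pcna, Mcm4 and Mcm6 led their wildtype levels, at 59.3, 44.3 and 33.5 CPM. Migratory cells, with 23 members measured, also had 2 lower and 8 higher, beside 5.44% and 9.7%. The lower ones were Asf1b and Mcm5. Their members of highest wildtype level were near level between libraries, namely Pcna (39.0 and 41.9 CPM, 0.11), Mcm6 (35.0 and 31.3 CPM) and Mcm3 (34.1 and 29.1 CPM, -0.22). In type 2 and in migratory cells only 9 of the 24 mitosis members reached 20 UMIs. A member can reach that minimum through the library where it is higher, so these counts depend in part on it. A handful of cells, picked by other mitosis genes as described below, held much of the Glut5 KO mitosis signal: 8 type 2 cells held 174 of 354 mitosis UMIs, and 7 migratory cells held 245 of 382. In wildtype, 1 type 2 cell was picked and held 0 mitosis UMIs, and 9 picked migratory cells held 45. Without the picked cells of both libraries the log2 ratios of the mitosis sums were -0.17 (-0.47 to 0.13) and -0.21 (-0.54 to 0.12). Both intervals span 0.

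Taken over all microglia, mitosis and replication members kept nearly the same balance, and elsewhere it shifted, in macrophages only without thinning. Within parts of the microglia, split by other mitosis genes as described below, the sets differed, though that split itself used mitosis transcripts. The mitosis and replication log2 ratios were 0.11 and -0.39 in picked cells, and -0.36 and -0.62 in the rest. The ratio of mitosis to replication UMIs in microglia was 1.28 in wildtype and 1.31 in Glut5 KO, with an interval of the log2 difference that spans 0 (-0.03 to 0.10). In macrophages it was 1.24 and 1.14, a log2 difference of -0.12 (-0.15 to -0.10) that turned to 0.01 when cells were thinned to 1000 UMIs, and in type 1 dendritic cells 1.37 and 1.27. T cells moved the other way, from 1.08 to 1.39 (0.36, 0.28 to 0.43). In NK cells, type 2 dendritic cells and migratory dendritic cells replication UMIs outnumbered mitosis UMIs in both libraries, with ratios of 0.460 and 0.660, 0.326 and 0.614, and 0.447 and 0.953.

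The share of dividing cells was lower in Glut5 KO microglia and macrophages. To compare cells of unequal depth, each was thinned to 1000 UMIs, and a cell with at least 2 UMIs of the mitosis members was called mitosis-high. In wildtype microglia 233 of 1479 were mitosis-high, or 15.8% (13.9 to 17.7%). In Glut5 KO microglia 100 of 1200 were, or 8.33% (6.83 to 10.0%). Thinning left out 95 and 201 shallower cells. Without thinning the shares were 33.0% and 18.9%. In macrophages the shares were 13.2% (12.4 to 14.0%) and 8.37% (7.68 to 9.10%), with 185 and 630 cells left out and unthinned shares of 32.4% and 20.2%. The cells between microglia and macrophages had higher shares than either, at 26.3% and 16.7%, and those left ungated 10.6% and 8.14%. The call is a range of a score: 154 wildtype and 85 Glut5 KO microglia had exactly 1 UMI, and 58 and 20 had exactly 2.

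Background was low in cells not known to divide. No neutrophil was mitosis-high, of 17 wildtype and 71 Glut5 KO cells, which allows shares of up to 19.5% and 5.06%. Migratory dendritic cells, a mature stage, had 0.669% (2 of 299) and 2.08% (5 of 240), at median depths of 5011 and 5697 UMIs before thinning, against 7492 and 5330.0 in microglia. Type 2 dendritic cells (0.469% and 1.19%) and wildtype NK cells (1.39%) lay within or near that background, and Glut5 KO NK cells were at 4.62% (2.55 to 7.63%). The NK log2 ratio was 1.61, with an interval of 0.06 to 3.79, on 4 wildtype and 14 Glut5 KO mitosis-high cells. T cells and type 1 dendritic cells did not separate between libraries, at 17.0% and 18.4%, and 17.0% and 15.9%. The interval of the T cell log2 ratio ran from -0.39 to 0.64, and that of the type 1 cells from -0.77 to 0.56. At these cell numbers, counting error leaves differences of either sign within those limits possible.

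Cells with at least 2 replication UMIs were called replication-high. They numbered 237 of 1479 wildtype and 101 of 1200 Glut5 KO microglia (intervals of 14.2 to 18.0% and 6.91 to 10.1%), and made up 15.1% and 8.59% of macrophages and 25.8% and 23.8% of T cells. Type 1 dendritic cells held 14.0% and 14.5%, and NK cells 6.97% and 11.2%. The interval of the NK log2 ratio spans 0 (-0.15 to 1.56). By point values only, the Glut5 KO NK share, on 303 cells, stood above those of microglia and macrophages, unlike the mitosis-high share. Of the mitosis-high microglia, 41.2% in wildtype and 41% in Glut5 KO were also replication-high, beside 11.3% and 5.45% of the other microglia. In T cells that overlap was larger, at 68.8% and 64.8%. Mitosis-high macrophages were deeper than the rest before thinning, with medians of 17586 against 8682 UMIs in wildtype, whereas in microglia the medians were 8025 and 8125. Over all kept cells, 1441 of 11091 wildtype and 959 of 10906 Glut5 KO cells were mitosis-high. Macrophages made up 63.4% and 52.3% of these, microglia 16.2% and 10.4%, and T cells 3.33% and 11.3%.

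**Figure D3:**
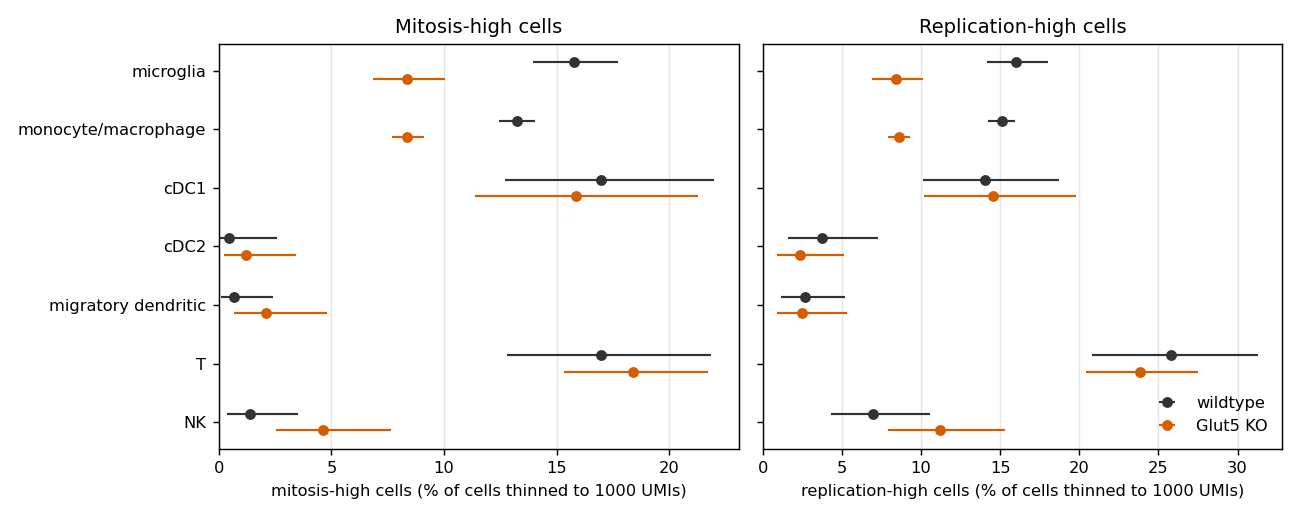
Share of mitosis-high (left) and replication-high (right) cells in each of the 7 cell types, in percent of cells thinned to 1000 UMIs; points are the single library of each genotype and bars are exact 95% Clopper-Pearson intervals. The intervals of the 2 libraries are apart in microglia (15.8% and 8.33% mitosis-high) and macrophages (13.2% and 8.37%) and overlap in the other 5 types.

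To see whether members differed within dividing cells, cells were picked by at least 2 UMIs, after thinning, of 37 mitosis genes that are not members. The pick took 230 wildtype and 85 Glut5 KO microglia (15.6% and 7.08%), a 2.19-fold lower share. The pick used mitosis transcripts and can draw the mitosis levels of the libraries together, so a contrast between the sets depends in part on it. Inside the picked microglia the mitosis members were slightly higher in Glut5 KO, at 3997 and 4313 CPM (0.11, 0.06 to 0.16). The replication members were lower, at 1816 and 1389 CPM (-0.39, -0.48 to -0.30). The helicase subunits Mcm2, Mcm4 and Mcm6 were furthest down there. Mcm2 was at 48.3 and 22.4 CPM (-1.08), on 132 and 21 UMIs, with Mcm4 and Mcm6 at -0.72 and -0.60. Cenpf was the highest, at 0.53. In the microglia not picked, the mitosis members were at 251 and 195 CPM (-0.36) and the replication members at 522 and 339.9 CPM (-0.62).

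In macrophages the pick took 13.6% and 9.37% of cells. The picked cells were close between libraries for both sets, at 3918 and 3678 CPM of mitosis members (-0.09) and 1892 and 1749.9 CPM of replication members (-0.11). The rest held 393 and 218 CPM of mitosis members, a log2 ratio of -0.85. Among T cells 21.6% and 25% were picked, with 3902 and 4483 CPM of mitosis members.

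Members differed in how far they stood out in the picked cells. The pick itself used mitosis transcripts, so high folds of the mitosis members follow largely from it and are a description only. In wildtype microglia the mitosis members were 9.20 to 25.4 times higher in picked cells than in the rest (median 17.7), led by Nusap1 (25.4-fold) and Kif11 (24.2-fold), with Spc24 and Cdk1 lowest (9.20 and 9.74). The point values of the replication members formed an upper and a lower group. The upper group was Pclaf (10.1-fold), Rrm2 (8.28), Asf1b (7.82), Tk1 (7.78), Rrm1 (5.33) and Tyms (4.86). The lower group was Mcm2 to Mcm7, Pcna, Cdc6 and Cdt1, which ranged from 1.61-fold for Mcm6 to 3.61-fold for Cdc6. The interval of Cdc6 (2.02 to 6.42) covered the values of Tyms and Rrm1. By point values the same 6 genes were the upper group in wildtype macrophages (up to 6.76-fold for Pclaf, against 1.57 to 2.29-fold) and in microglia and macrophages of the Glut5 KO library. In T cells the grouping held by point values in wildtype but not in Glut5 KO. There Cdc6, on 50 UMIs in picked cells and 25 in the rest, was at 3.08-fold, above Rrm1 (2.36) and Tyms (2.75). Cks1b sat with the upper group, at 5.70-fold in wildtype microglia. This grouping was read from the values and has no test.

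**Figure D4:**
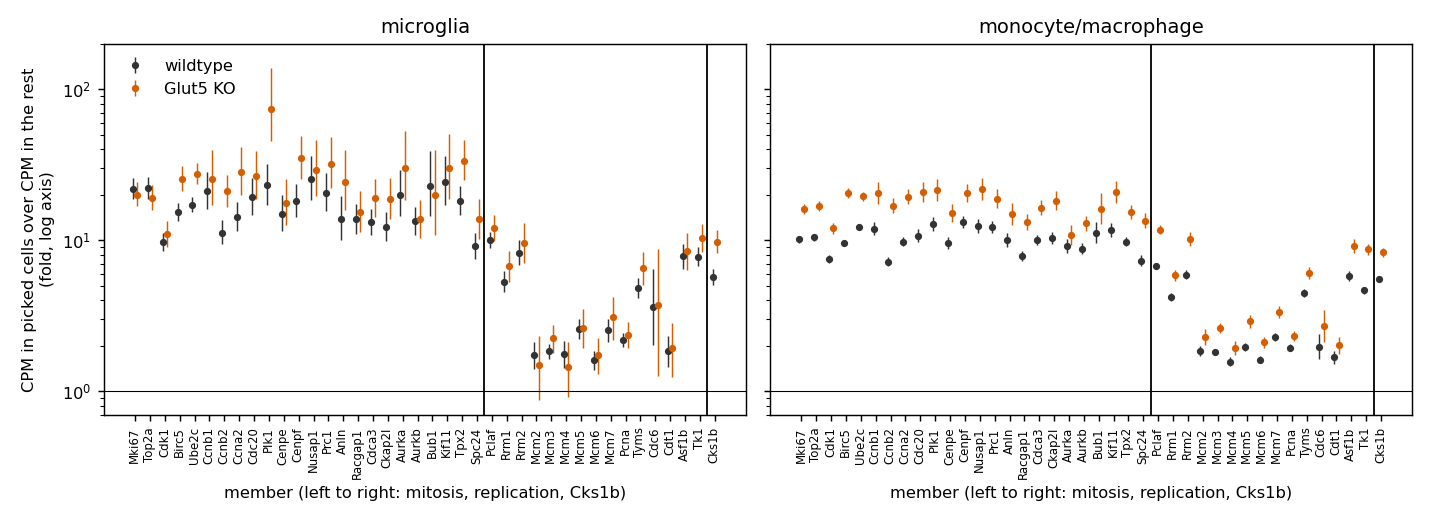
CPM of each member in cells picked by 37 non-member mitosis genes, divided by its CPM in the remaining cells, on a log axis, for microglia (left) and macrophages (right); points are the single library of each genotype and bars are exact 95% intervals of counting error. Mitosis members sit high (median 17.7-fold in wildtype microglia), Mcm2 to Mcm7, Pcna, Cdc6 and Cdt1 sit low, and Rrm1, Rrm2, Tyms, Asf1b and Tk1 lie between. Pclaf reaches the range of the mitosis members in wildtype microglia, at 10.1-fold beside 9.20-fold for the lowest of them.

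The split by sex separated microglia from macrophages and T cells. Female microglia had mitosis sums of 1165 and 662 CPM (-0.82, -0.87 to -0.76) and male microglia 942 and 419 CPM (-1.17, -1.27 to -1.08), so both sexes were lower in Glut5 KO. Female macrophages had 1323 and 1070.4 CPM (-0.31) and male macrophages 1279 and 519 CPM (-1.30). The wildtype mitosis levels of the sexes were thus near each other in macrophages, and the Glut5 KO levels of male cells were below those of female cells. The replication sum differed more between the sexes in wildtype, at 1118 CPM in female and 923 CPM in male macrophages. In Glut5 KO it was 920 and 420 CPM. For Ube2c, female macrophages were at 168 and 121 CPM and male ones at 152 and 53.9 CPM, and for Pclaf at 139 and 124 against 123 and 47.6 CPM. The mitosis-high share of female macrophages was 15.5% and 13.6%, with an interval of the log2 ratio that spans 0 (-0.44 to 0.07), and that of male macrophages 16.1% and 6.06%. In microglia the shares were 14.1% and 7.95% for female and 15.5% and 7.76% for male cells. Among wildtype macrophages 1715 were called female and 2431 male of 7097, and among Glut5 KO ones 1890 and 1493 of 6625. These were deeper than macrophages as a whole (medians of 9178 and 7200 UMIs), so values by sex need not bracket those of all cells. Animals were not labelled, so sex and animal cannot be told apart, and the difference between the sexes was not tested.

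In T cells, 13 of 24 mitosis members were at least 1.5-fold higher and 0 lower in male Glut5 KO cells, beside 9.79% and 8.18% of all genes, and 7 of 22 measured were at least 1.5-fold lower in female ones, beside 11.5% of all genes. Mki67 was at 161 and 289 CPM in male and at 182 and 113 CPM in female T cells. Of the replication members, 8 of 15 were at least 1.5-fold higher in female Glut5 KO T cells, beside 18.3% of all genes, and 0 in male ones, with Mcm6 at 87.8 and 208 CPM in female and 219 and 209 CPM in male cells. The female wildtype values come from 41 cells.

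**Figure D5:**
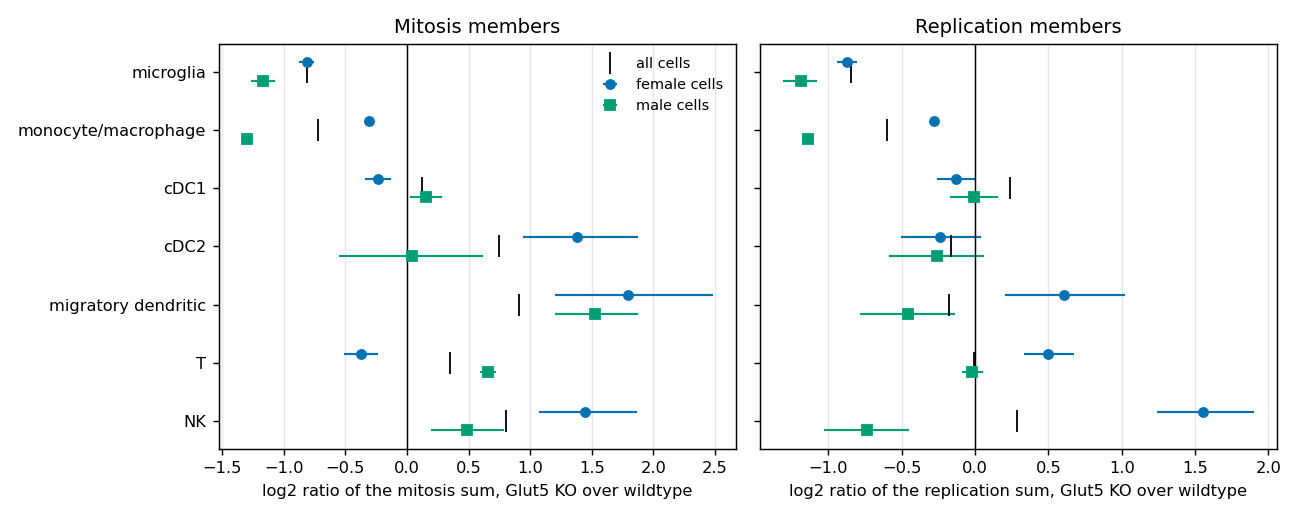
Log2 ratio, Glut5 KO over wildtype, of the mitosis sum (left) and the replication sum (right) in female cells (circles), male cells (squares) and all cells (ticks) of the 7 types; bars are exact 95% intervals of counting error. In microglia both sexes lie left of 0, in macrophages the male value (-1.30) lies far left of the female value (-0.31), and in T cells the mitosis values lie on opposite sides of 0.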

How the data were processed

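Single-cell RNA was measured with a 10x 5′ kit in 1 wildtype and 1 Glut5 KO library, and the authors deposited whole UMI counts, not normalized, per the file headers. The submitters' processing notes name Cell Ranger 3.1.0 with mm10, whereas 7.0.1 stands in the header of the matrices. The sources used here do not state the annotation release or the use of intron reads. The members and gene lists were chosen with earlier results of these data known.

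Kept barcodes had at least 300 genes and under 10% mitochondrial UMIs. For gating, each marker's UMIs per 10000 were divided by their 99.5th percentile (at least 2), capped and averaged per type. A lymphoid, dendritic or other type needed a score of at least 0.2 and 1.5 times every other. Remaining cells with such scores under 0.15 were called microglia at a log2 ratio of microglial to macrophage marker UMIs of at least 1, and macrophages at 0 or below. These thresholds were set after the data were seen. No doublets were removed; removing the 8% highest Scrublet scores was an alternative. UMIs were summed by type and library and scaled to CPM. Ratios add 0.5 to each count and have exact conditional binomial intervals; sums have Poisson and shares Clopper-Pearson intervals, at 95%. Without replicates there is no test. The calculation was tested on simulated data. In microglia and macrophages any member with at least 100 UMIs could be named, and elsewhere the 3 of highest level and the 2 extreme ratios; of each other list, the 2 lowest and 2 highest ratios with at least 100 UMIs were named. Further genes past 1.5-fold and the members of the picked-cell grouping were named after their values were seen. Python 3.11.15, numpy 2.4.6, scipy 1.17.1 and scanpy 1.11.5 were used.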

Additional observations from a re-analysis of the deposited data

Results flagged for a closer look

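Values are log2 ratios of summed CPM, Glut5 KO over wildtype. The differences between groups below were not tested, because each genotype is a single library and animals are not labelled.

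Female and male cells of the same type lay on opposite sides of 0, with both intervals clear of 0, in 4 places. The mitosis sum of T cells was at -0.38 in female and 0.66 in male cells. The mitosis sum of type 1 dendritic cells was at -0.24 and 0.15. The replication sum of NK cells was at 1.56 in female and -0.73 in male cells, and that of migratory dendritic cells at 0.60 and -0.46. The replication sum of T cells was at 0.50 in female and -0.02 in male cells, where the male interval spans 0 (-0.09 to 0.05).

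Cell types also lay on opposite sides of 0. The mitosis sum was at -0.81 in microglia and -0.73 in macrophages, and at 0.35 in T cells, 0.81 in NK cells, and 0.12, 0.74 and 0.91 in type 1, type 2 and migratory dendritic cells. In NK, type 2 and migratory dendritic cells a few picked cells held much of the Glut5 KO mitosis signal, as given above. The replication sum was at -0.85 in microglia and -0.60 in macrophages, and at 0.24 in type 1 dendritic cells and 0.29 in NK cells.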

How the results depend on the processing

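Values are log2 ratios, Glut5 KO over wildtype. Of 398 alternative values, 284 stayed within counting error (for counts of members, within 1.5 times), 109 moved beyond it and 5 changed the sign of a value past 1.5-fold. Over the sums and shares of all 7 types, values short of 1.5-fold included, 31 of 209 alternatives changed sign. In microglia and macrophages, 7 of 7 alternatives of each sum and 8 of 8 of each share kept the direction. Male cells alone gave -1.17 (mitosis sum) and -1.19 (replication sum) in microglia, -1.30, -1.14, -1.41 (mitosis-high share) and -1.40 (replication-high share) in macrophages, and 0.66 for the T cell mitosis sum. Female cells alone gave -0.31, -0.28, -0.19 and -0.45 in macrophages, with 1 member at least 1.5-fold lower in place of 34, and -0.38 (mitosis sum), 0.50 (replication sum) and -0.40 (mitosis-high share) in T cells. The stricter gate gave -0.93 and -0.93 in microglia and -0.89 for macrophage mitosis. Removing high Scrublet scores gave -0.91 for microglial replication and 0.44 for T cell mitosis. Centring on all genes gave -0.67 and -0.55 in macrophages, and thinning to 1000 UMIs gave -0.61 and -0.62 there and 0.19 in T cells. Unthinned replication-high shares gave -0.55 in microglia and -0.45 in macrophages, where thinning to 2000 UMIs gave -0.53, a minimum of 1 UMI -0.39 (mitosis-high -0.46) and of 3 UMIs -0.99. In T cells 8 of 30 changed sign, among them the mitosis sum in female cells given above, in type 1 dendritic cells 11 of 30 (mitosis sum -0.24 in female cells), in migratory dendritic cells 6 of 30, in type 2 dendritic cells 4 of 29 and in NK cells 2 of 30 (replication sum -0.73 in male cells). The sign changes of values past 1.5-fold were the replication-high share of type 2 dendritic cells (0.11 at 2000 UMIs, 0.13 with the stricter gate, 0.33 in female cells), the unthinned mitosis-high share of migratory dendritic cells (-0.17) and the replication-high share of NK cells at 1 UMI (-0.16). The cause was not tested. No paired analysis was possible because each genotype is a single library, and for the same reason no library could be left out.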

Other observations

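Small classes outside the comparisons also held members. Plasma cells of the Glut5 KO library (142 cells) had a mitosis sum of 817 CPM (784 to 851) and a mitosis-high share of 16.2% (10.6 to 23.3%), and B cells (267 cells) had 659 CPM and 5.95%. Collagen-expressing cells, which are not leukocytes, were at 1398 CPM in 128 wildtype and 457 CPM in 97 Glut5 KO cells. The gate took stromal or tumour cells together, on markers that include Gfap, Sox2 and Olig1. Of these cells 101 and 61 were called female, and 1 and 2 male. Host cells and implanted tumour cells were not told apart. The ratio of mitosis to replication UMIs in this class was 2.95 in wildtype and 1.75 in Glut5 KO. In wildtype, 15 of these cells held 2000 of their 2204 mitosis UMIs.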
